A study of Mus musculus with 24 samples.

Results

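The mitochondrial ribosomal protein genes of the mouse kidney were taken as all protein-coding genes whose symbol begins with Mrps or Mrpl and a number. There were 77 of them among 40750 genes, or among 21832 protein-coding genes, with 30 Mrps and 47 Mrpl identifiers and 76 distinct symbols, since Mrps23 has 2 identifiers. The choice used symbols and gene type, not measured values. The 24 libraries came from male mice of 8-10 weeks on a mixed background that all carried Kim1-GCE+/- and EGFPL10a+/-. They formed 8 groups of 3 biological replicates: D2, D7 and D14 IRI kidneys (2, 7 and 14 days after both renal pedicles were clamped for 20 minutes) and sham kidneys (the same surgery with no clamp), each as bound and as unbound RNA. Tamoxifen was given 6 hours before and 24 hours after the injury, so that cells with an active Kim1 promoter, which drives the GCE (a tamoxifen-activated Cre with GFP), could switch on a GFP-tagged ribosomal protein, L10a. Bound RNA is what antibodies against GFP pulled down with tagged ribosomes (translating ribosome affinity purification, TRAP), and unbound RNA is what was left of the kidney homogenate, which the labels call the total kidney. Kim1 is known as a gene of the injured proximal tubule that is little expressed in uninjured kidney, which limits sham bound RNA as a reference for that cell type.

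Mitochondria have their own ribosome, which makes the few subunits of the respiratory chain and ATP synthase that mitochondrial DNA encodes. Its RNA comes from mitochondrial DNA, but all of its proteins are encoded in the nucleus, made in the cytosol and imported. Mrps genes encode mostly proteins of the small subunit, which reads the messenger, and Mrpl genes those of the large subunit, which joins amino acids. Some members have homologues in bacterial ribosomes and others are found only in mitochondria. The proximal tubule is rich in mitochondria and depends on oxidative metabolism for its transport work.

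Values are RPKM as the authors deposited them (reads scaled to exon length and to library size), and folds are log2 differences of RPKM + 0.5 fitted by limma over all 24 libraries. A gene was called, and is said to have risen or fallen, at a Benjamini-Hochberg adjusted p under 0.05 over 13721 genes, those that reached 1 RPKM in 3 or more of the libraries. Library depths inferred from the spacing of low values were 15.7 to 24.7 M reads, with a median of 20.2 M reads. Bound replicates were least alike at day 14 and day 2 (lowest Pearson's r of log2 values 0.893 and 0.907 between 2 replicates), and D7 IRI bound replicates were as alike (0.972 to 0.978) as most unbound ones (0.933 to 0.980 over all times). Proximal tubule markers were lower in sham bound than in sham unbound RNA for 9 of 16 genes and higher for none, while 6 of 6 podocyte markers were higher in sham bound RNA. Among all tested genes 12.9% were lower and 14.6% higher in that comparison. The summed level of the podocyte markers was 136 to 421 RPKM in sham bound libraries, against 23.5 to 38.6 RPKM in sham unbound libraries. For injured tubule markers that sum was 3144 to 5996 RPKM in D7 IRI bound libraries, against 560.2 to 743 RPKM in sham bound libraries.

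Of the 77 genes, 73 passed the filter on low values (28 Mrps and 45 Mrpl). Mrpl23, Mrpl53 and both identifiers of Mrps23 did not and stayed under 1 RPKM in every library. The proteins of the 73 tested genes have 87 to 442 residues, with a median of 200. In sham unbound RNA the highest level was that of Mrpl42, at 621 ± 91.7 RPKM (SD, n = 3). It was followed by Mrpl28 at 367 RPKM, Mrps21 at 291 RPKM, Mrpl34 at 236 RPKM and Mrpl18 at 231 RPKM. The lowest tested levels were those of Mrps10 at 3.79 RPKM, Mrpl3 at 4.79 RPKM and Mrps22 at 4.80 RPKM. Shorter products went with higher levels per length: the 21 genes of up to 150 residues had a median of 118 RPKM and the 8 genes of more than 350 residues one of 17.6 RPKM. All 77 genes together summed to 5944 to 6309 RPKM in D7 IRI bound libraries, against 3062 to 4456 RPKM in sham bound libraries.

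**Figure D1:**
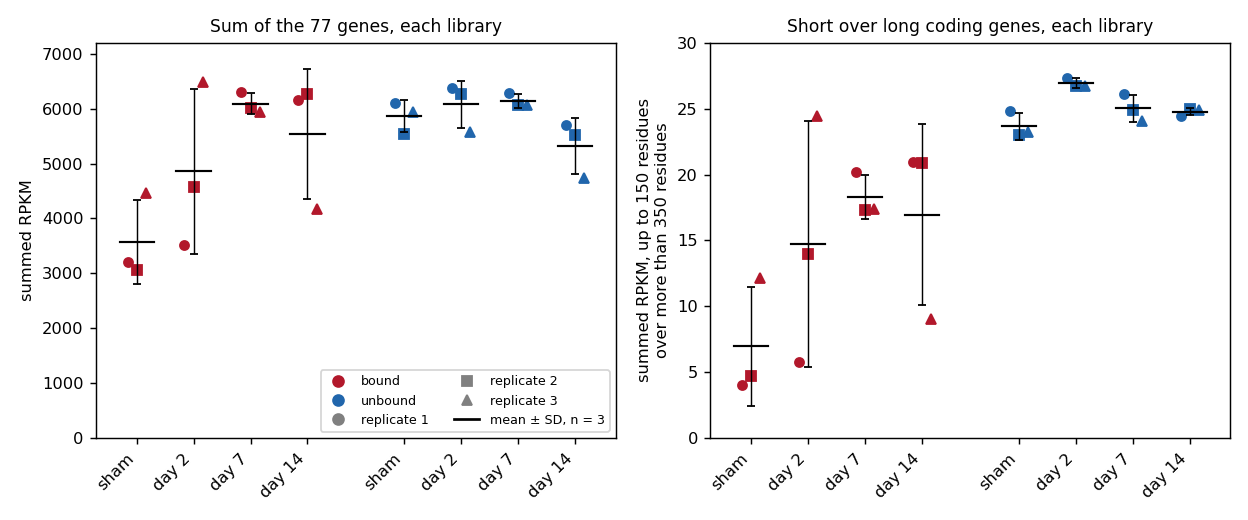
The left panel shows the summed RPKM of the 77 genes in each library and the right panel the summed RPKM of the 21 genes of up to 150 residues over that of the 8 genes of more than 350 residues. Points are libraries, lines are means and bars are SD of 3 libraries. Unbound libraries lie close together in the right panel, between 23 and 27.3, and bound libraries spread from 4.01 to 24.4.

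In bound RNA at day 7, 45 of the 73 tested genes differed from sham, 41 higher and 4 lower, where 22.7% of all tested genes were called (15.2% higher and 7.55% lower). The median log2 fold was 0.82 over the 73 genes and 0.13 over all tested genes. The genes that rose most had short products, and all 4 that fell had products of 336 to 432 residues. In RNA of a mixed tissue, fewer cells of a type and less RNA per cell cannot be told apart. Markers of other cells moved with this comparison: the macrophage markers summed to 943 to 1531 RPKM in D7 IRI bound libraries, against 167 to 309 RPKM in sham bound libraries, and the podocyte markers to 46.8 to 75.3 RPKM in D7 IRI bound libraries, against 136 to 421 RPKM in sham bound libraries. Their part in the gene results was not tested. Leaving out 1 library at a time gave 23 to 52 calls, with 24, 23 and 52 without sham bound replicate 1, 2 and 3 (against 14.2%, 14.4% and 27.8% of all tested genes), and 29 without D7 IRI bound replicate 2 (against 14.4%). Libraries of the groups did not overlap for 43 genes that were higher and 8 that were lower, against 24.9% higher and 14.4% lower among all tested genes.

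Mrps24, whose product is a small-subunit protein with a bacterial homologue, showed the largest rise. It had 39.9, 43.6 and 29.6 RPKM in D7 IRI bound libraries, against 8.53, 11.1 and 13.8 RPKM in sham bound libraries. Every D7 IRI value was above the highest sham value (log2 fold 1.72, SE 0.37, limma adjusted p = 0.003). About 15.4% of its exon bases are shared with another gene, Urgcp. Mrpl36, which encodes one of the smallest proteins of the large subunit, had 217, 242 and 284 RPKM in D7 IRI bound libraries, against 59.2, 50.9 and 152 RPKM in sham bound libraries. The third sham library was the highest of its group and still below all D7 IRI libraries (log2 fold 1.67, SE 0.33, limma adjusted p = 0.0018). Mrpl34, another very short large-subunit protein, had 299, 341 and 336 RPKM in D7 IRI bound libraries, against 105, 67.1 and 168 RPKM in sham bound libraries (log2 fold 1.62, SE 0.32, limma adjusted p = 0.0017). Its groups did not overlap either. Mrpl14, which sits at the face that meets the small subunit, had 218, 202 and 185 RPKM in D7 IRI bound libraries, against 55.7, 59.3 and 102 RPKM in sham bound libraries (log2 fold 1.52, SE 0.30, limma adjusted p = 0.0015). All 3 D7 IRI values were above all sham values, and 11.2% of its exon bases are shared with another gene.

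The next largest rises were those of Mrpl52, a mitochondria-specific protein (log2 fold 1.43), Mrpl20 (1.41), Mrps18c (1.32) and Mrps28 (1.27), with libraries that did not overlap in any of them; 23.2% of the exon bases of Mrps18c are shared with another gene. Mrpl42, the member with the highest level in unbound RNA, had 334, 354 and 375 RPKM in D7 IRI bound libraries, against 166, 155 and 311 RPKM in sham bound libraries, also without overlap (log2 fold 0.82, SE 0.27, limma adjusted p = 0.031). Mrpl12 encodes the flexible stalk protein that recruits translation factors. It had 211, 184 and 160 RPKM in D7 IRI bound libraries, against 110, 98.9 and 98.3 RPKM in sham bound libraries (log2 fold 0.85, SE 0.23, limma adjusted p = 0.013). Sham values for Mrpl12 were close together and all below the D7 IRI values. Mrps12, a protein of the decoding centre, rose by 1.16 on the log2 scale (limma adjusted p = 0.0074), Mrpl11 of the stalk base by 1.15 (limma adjusted p = 0.0036) and Mrps16 by 1.0 (limma adjusted p = 0.0047).

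The 4 genes that fell at day 7 all encode longer proteins. Mrpl1, part of the mobile stalk beside the exit site for transfer RNA, had 7.43, 7.96 and 8.73 RPKM in D7 IRI bound libraries, against 17.6, 16.5 and 13.7 RPKM in sham bound libraries. The groups did not overlap, and the fall was 1.92-fold (log2 fold -0.94, SE 0.23, limma adjusted p = 0.0074). Mrps27, a protein with pentatricopeptide repeats, had 27.3, 28.3 and 29.6 RPKM in D7 IRI bound libraries, against 62.2, 48.6 and 41.9 RPKM in sham bound libraries (log2 fold -0.81, SE 0.28, limma adjusted p = 0.039). About 24.2% of its exon bases are shared with a gene on the other strand. Mrps5, a small-subunit protein with a bacterial homologue, had 7.57, 7.15 and 7.26 RPKM in D7 IRI bound libraries, against 14.9, 10.6 and 10.3 RPKM in sham bound libraries (log2 fold -0.65, SE 0.17, limma adjusted p = 0.010). The D7 IRI libraries were nearly level and all below sham. Mrps31 had 19.8, 18.9 and 20.0 RPKM in D7 IRI bound libraries, against 45.1, 24.9 and 35.0 RPKM in sham bound libraries (log2 fold -0.78, SE 0.24, limma adjusted p = 0.023). Its D7 IRI libraries and those of Mrps27 were also all below sham.

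**Figure D2:**
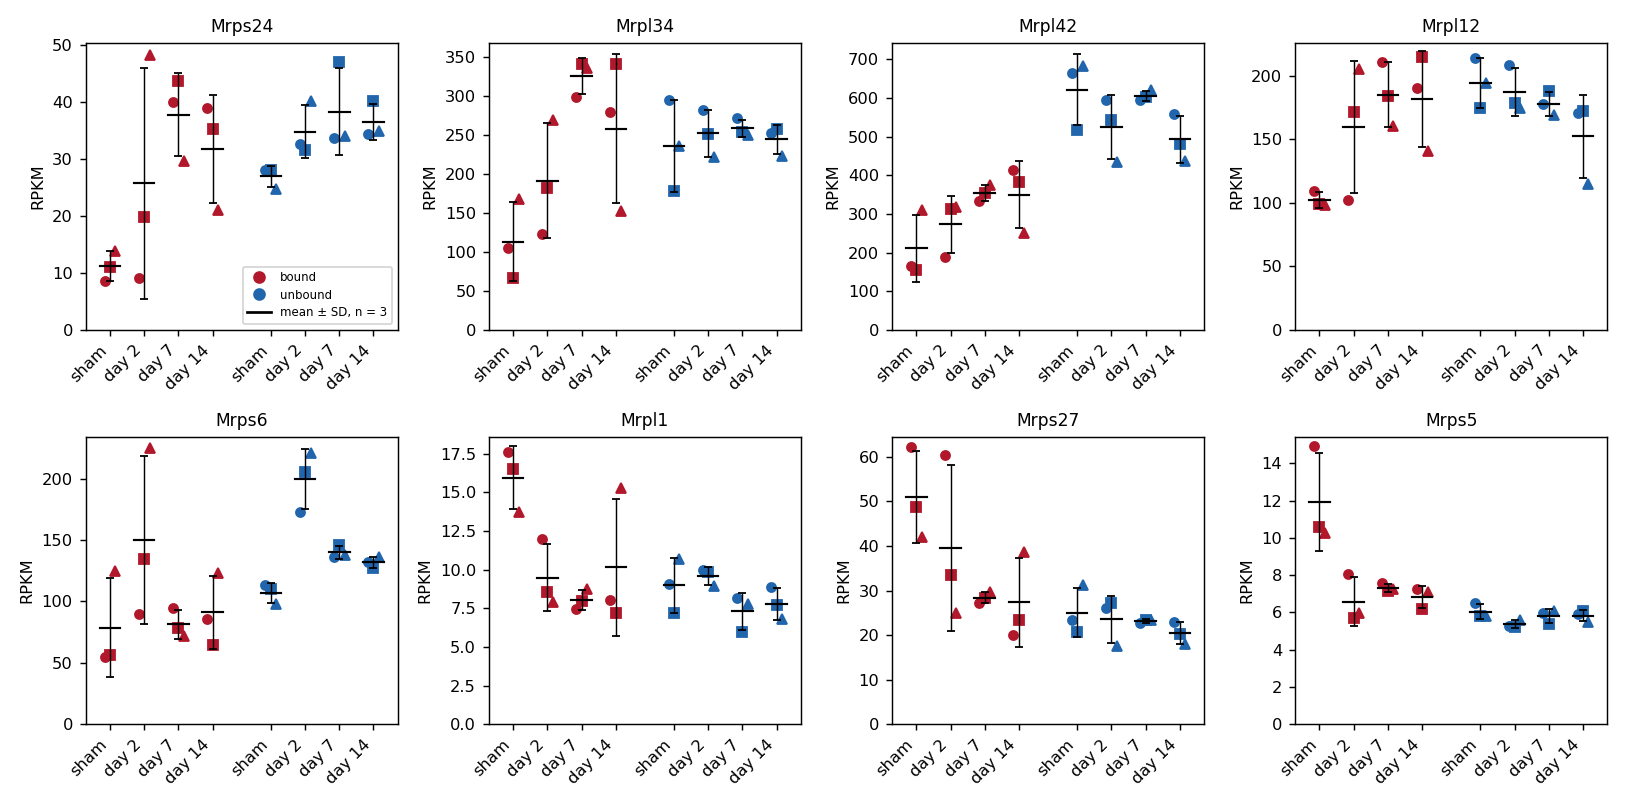
RPKM of 8 genes in each library, bound in red and unbound in blue, with mean and SD of 3 libraries; all axes start at 0. Mrps24 and Mrpl34 were lowest in sham bound RNA, at means of 11.1 and 113 RPKM, and Mrpl1, Mrps27 and Mrps5 were highest there, at means of 16, 50.9 and 11.9 RPKM.

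The other 28 tested genes were not called at day 7. Among them Mrpl44, an RNase III-like protein whose human gene is linked to cardiomyopathy, had a log2 fold of -0.48 (limma adjusted p = 0.12). Mrpl45, which helps to hold the ribosome at the inner membrane, had -0.18 (limma adjusted p = 0.53). Mrps22, whose human variants cause cardiomyopathy with tubulopathy, had 6.30, 7.16 and 6.14 RPKM in D7 IRI bound libraries, against 15.3, 11.5 and 5.31 RPKM in sham bound libraries. Its first 2 sham libraries were high and the third was below all D7 IRI libraries (log2 fold -0.56, limma adjusted p = 0.15). Mrpl3 had a log2 fold of 0.17 and Mrps30, which despite its name sits in the large subunit, one of 0.25. Of the 3 Mrps18 genes, Mrps18c (1.32) and Mrps18b (0.70, limma adjusted p = 0.014) rose, and Mrps18a, another large-subunit protein, did not pass (0.61, limma adjusted p = 0.060). About 30.5% of the exon bases of Mrps18b are shared with another gene. Mrps36, whose product is now known as a component of the alpha-ketoglutarate dehydrogenase complex, did not pass either (0.70, limma adjusted p = 0.060).

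The calls were spread over both subunits and both origins. Among the 28 Mrps genes 15 rose and 3 fell (median log2 fold 0.75), and among the 45 Mrpl genes 26 rose and 1 fell (median 0.83). Of 44 tested genes with a bacterial homologue 28 rose and 2 fell (median log2 fold 0.84). Of 29 genes classed as mitochondria-specific 13 rose and 2 fell (median 0.70). The latter class includes Mrps36, whose own log2 fold is that median. The median products of these classes were 194 and 206 residues long.

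At day 2, 12 of the 73 genes differed from sham in bound RNA, 8 higher and 4 lower, against 19.8% of all tested genes (13.3% higher and 6.48% lower), with a median log2 fold of 0.39 over the 73 genes and 0.16 over all tested genes. Mrpl52 rose most. It had 152, 305 and 588 RPKM in D2 IRI bound libraries, against 88.4, 92.4 and 211 RPKM in sham bound libraries, and the groups overlapped (log2 fold 1.32, SE 0.35, limma adjusted p = 0.012). Mrps6, a small-subunit protein with a bacterial homologue that shares 19.9% of its exon bases with other genes, had 90.1, 135 and 225 RPKM in D2 IRI bound libraries, against 54.7, 56.4 and 125 RPKM in sham bound libraries, again with overlap (log2 fold 0.94, SE 0.30, limma adjusted p = 0.034). It was not called at day 7 (log2 fold 0.15, limma adjusted p = 0.76), and was lower than sham there with the coding-length trend removed. Mrps15 (0.93), Mrpl14 (0.87), Mrps12 (0.85), Mrps28 (0.80), Mrpl51 (0.77) and Mrpl11 (0.75) also rose. Mrps5 (-0.81, limma adjusted p = 0.0024), Mrpl1 (-0.73), Mrps31 (-0.68) and Mrpl39 (-0.48) fell. The split turned with the scaling: it was 1 higher and 6 lower with median-ratio size factors or with either length trend removed, and 5 and 5 with RPKM rescaled to the same total. With the coding-length trend removed the median log2 fold of the members was -0.03, only Mrpl52 was higher, and Mrps5, Mrps22, Mrpl1, Mrps31, Mrpl48 and Mrpl39 were lower, against 24.5% of all genes in that fit. The 3 D2 IRI bound libraries differed from each other, and the count was 40 without replicate 1 (against 29.7% of all tested genes), 2 without replicate 2 (against 9.83%) and 1 without replicate 3 (against 11.3%). Omitting sham bound replicate 1, 2 or 3 left 1, 3 and 28 (against 12.3%, 14.2% and 24.5% of all tested genes). A fit with only the groups compared, which takes no spread from the other groups, called 0 of the members. No share of all tested genes is given for that fit, for median-ratio factors, for rescaling or for the exon-length trend. Those counts are therefore not results about the members.

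At day 14, 25 of the 73 genes differed from sham in bound RNA, 23 higher and 2 lower, against 13.3% of all tested genes (8.71% higher and 4.58% lower), with a median log2 fold of 0.58 over the 73 genes and 0.18 over all tested genes. Mrps24 again had the largest rise, with 38.9, 35.1 and 21 RPKM in D14 IRI bound libraries, against 8.53, 11.1 and 13.8 RPKM in sham bound libraries, and no overlap (log2 fold 1.44, SE 0.37, limma adjusted p = 0.015). Mrps21 (1.27), Mrps18c (1.25), Mrpl14 (1.25), Mrpl41 (1.22), Mrpl20 (1.21), Mrpl34 (1.21) and Mrpl13 (1.10) followed. Mrps27 (-0.92, limma adjusted p = 0.033) and Mrps5 (-0.74, limma adjusted p = 0.0087) fell. With the coding-length trend removed, 7 were higher (Mrps24, Mrps18c, Mrpl14, Mrps28, Mrpl13, Mrpl11 and Mrpl32) and 5 lower (Mrps27, Mrpl1, Mrps5, Mrpl48 and Mrps18b), against 13.8% of all genes in that fit, with a median log2 fold of 0.09 over the members. The split was 8 higher and 3 lower with median-ratio size factors, 7 and 4 with the exon-length trend removed, and 11 and 6 with RPKM rescaled to the same total. The third D14 IRI bound library was nearer to sham: Mrps21 had 315, 363 and 131 RPKM in D14 IRI bound libraries, against 88.8, 75.2 and 157 RPKM in sham bound libraries. The groups of Mrps21 overlapped (limma adjusted p = 0.016). The count of 25 became 42 without that library (against 19.2% of all tested genes), 2 without D14 IRI bound replicate 1 (against 5.74%) and 5 without replicate 2 (against 8.68%). Omitting sham bound replicate 1, 2 or 3 left 1, 5 and 40 (against 6.57%, 6.61% and 18.2%). As at day 2, a fit with only the groups compared called 0 of the members. Here too no share of all tested genes is given for that fit, for median-ratio factors, for rescaling or for the exon-length trend. None of the 73 genes was called between D14 IRI and D2 IRI bound RNA in limma, against 6.64% of all tested genes. There 8 had an unadjusted p under 0.05, against 2767 of all 13721 tested genes. Over the 4 times together, a limma F-test called 37 of the 73 genes in bound RNA, against 27% of all tested genes, and leaving out 1 library at a time gave 9 (without the first sham bound library) to 50 (without the first D2 IRI bound library). With only the bound libraries fitted, that F-test called 0 of the members, and no share of all tested genes is given for it. The 3 comparisons with sham share their sham libraries.

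Promoters are shown for the members with the 2 largest rises and the 2 largest falls at day 7 that have 1 RefSeq start: Mrps24 (chr11:5707652-5707951, minus strand), Mrpl36 (chr13:73330759-73331058, plus strand), Mrpl1 (chr5:96209865-96210164, plus strand) and Mrps27 (chr13:99344536-99344835, plus strand), all in GRCm38.p6. Each runs 5′ to 3′ from 250 bases before the start to 50 after it, and capitals mark letters that read CCGGAAG (the core bound by ETS factors such as GABP), AAGATGGC (a YY1 motif) or GCATGCGC (an NRF1 motif) on either strand.
Mrps24: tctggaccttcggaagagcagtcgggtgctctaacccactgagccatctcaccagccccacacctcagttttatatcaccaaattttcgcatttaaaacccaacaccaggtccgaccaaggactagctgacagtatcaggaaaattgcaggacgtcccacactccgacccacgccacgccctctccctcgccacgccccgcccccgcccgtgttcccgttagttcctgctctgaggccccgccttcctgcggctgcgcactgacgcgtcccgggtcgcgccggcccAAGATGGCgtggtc
Mrpl36: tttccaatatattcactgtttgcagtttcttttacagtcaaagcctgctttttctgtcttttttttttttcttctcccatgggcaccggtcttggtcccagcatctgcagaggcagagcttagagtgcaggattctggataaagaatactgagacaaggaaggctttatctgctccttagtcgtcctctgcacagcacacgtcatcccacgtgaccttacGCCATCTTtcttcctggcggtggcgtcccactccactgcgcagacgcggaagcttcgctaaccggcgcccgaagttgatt
Mrpl1: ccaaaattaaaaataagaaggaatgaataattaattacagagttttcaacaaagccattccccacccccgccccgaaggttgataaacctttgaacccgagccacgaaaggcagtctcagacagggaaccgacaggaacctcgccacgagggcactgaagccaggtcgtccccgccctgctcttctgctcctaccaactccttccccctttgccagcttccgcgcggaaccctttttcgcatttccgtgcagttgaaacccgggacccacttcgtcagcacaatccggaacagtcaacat
Mrps27: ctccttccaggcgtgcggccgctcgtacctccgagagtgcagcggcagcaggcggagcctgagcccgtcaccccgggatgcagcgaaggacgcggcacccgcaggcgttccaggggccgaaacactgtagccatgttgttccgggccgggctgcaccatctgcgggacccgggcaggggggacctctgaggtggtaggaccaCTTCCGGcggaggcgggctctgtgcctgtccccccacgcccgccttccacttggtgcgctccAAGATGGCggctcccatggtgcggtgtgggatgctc

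RefSeq promoters were found for 67 of the 76 symbols. The ETS letters stood in 35.8% of these 67 genes and in 9.93% of all 27025 genes with a promoter, the YY1 letters in 17.9% and 3.19%, and the NRF1 letters in 10.4% and 3.05%. For comparison, CCAAT stood in 38.8% and 41.1%, and TATAAA in 7.46% and 15.7%. The last 3 letters of the ETS core can be the first 3 of the YY1 motif, but the 2 joined in this way in none of the 67 genes. At day 7 the 22 tested genes with the ETS letters had a median log2 fold of 0.97 in bound RNA (16 rose) and the 42 without them one of 0.67 (22 rose). Products of the genes with the ETS letters were shorter, with medians of 167.5 and 203.5 residues. The 12 genes with the YY1 letters had a median log2 fold of 0.81 (8 rose) and the 52 without them 0.76 (30 rose). The 7 genes with the NRF1 letters had a median of 0.26 (3 rose; median 254 residues) and the 57 without them 0.83 (35 rose; median 191 residues).

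The size and direction of the difference followed the length of the coding sequence. At day 7 the median log2 fold in bound RNA was 1.15 for the 21 genes of up to 150 residues (18 rose, 0 fell). It was 0.84 for the 25 of 150 to 250 residues (18 rose, 0 fell), 0.17 for the 19 of 250 to 350 residues (5 rose, 1 fell) and -0.39 for the 8 longer ones (0 rose, 3 fell). Over all tested genes of the same 4 length classes the medians were 0.86, 0.50, 0.23 and -0.04. Spearman's rho between residues and log2 fold over the 73 genes was -0.70 at day 2, -0.77 at day 7 and -0.79 at day 14 in bound RNA. Over 12326 tested genes with a coding length rho was -0.20, -0.37 and -0.33. These are descriptions over genes that share libraries, and the 3 times share their sham group. All 21 genes of up to 150 residues had the lowest of their 8 group means in sham bound RNA, and 7 of the 8 longest had their highest there.

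**Figure D3:**
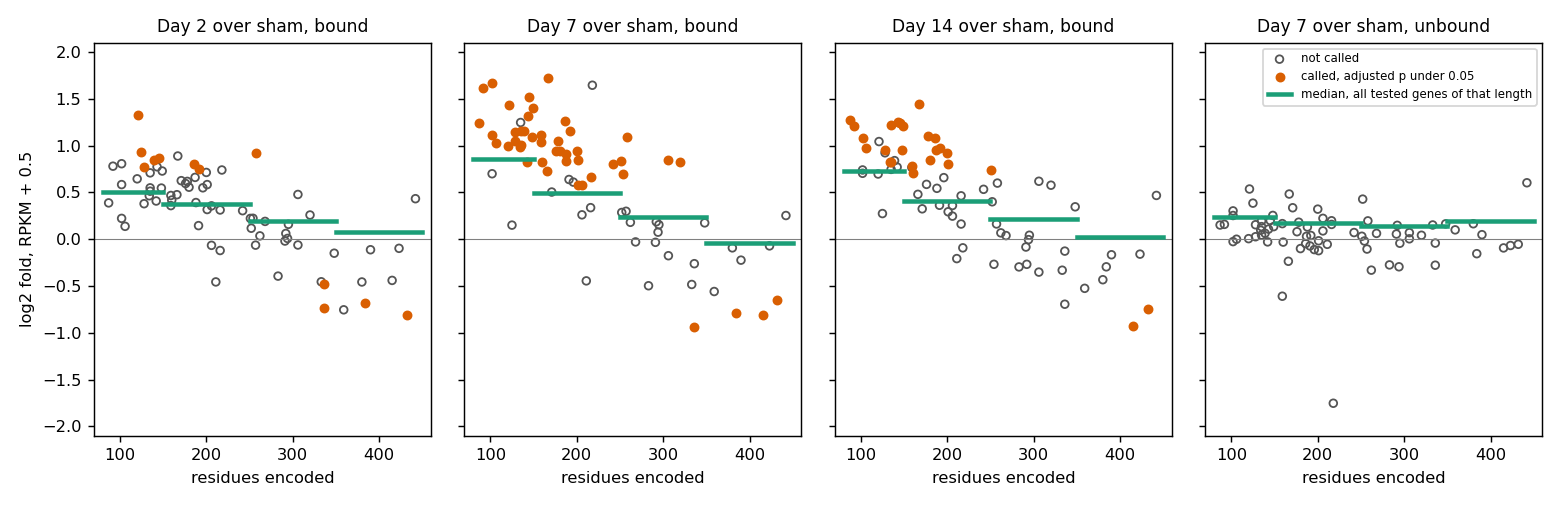
Log2 fold over sham of each of the 73 tested genes (vertical) against the residues its product has (horizontal), in bound RNA at 3 times and in unbound RNA at day 7. Filled points were called, and green lines are medians of all tested genes of the same length class. In bound RNA the points slope down from above 1 to below 0 at day 7, and in unbound RNA no point was called.

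The length pattern was also present between replicates. The summed RPKM of the 21 shortest genes over that of the 8 longest was 4.01, 4.72 and 12.2 in sham bound libraries, 5.79, 14.0 and 24.4 at day 2, 20.2, 17.3 and 17.4 at day 7, and 21, 20.9 and 9.02 at day 14. Unbound libraries of all times lay between 23 and 27.3. Bound libraries with a low ratio also had a greater RPKM-weighted mean exon length over all genes: 3532, 3633 and 3285 bases in sham bound libraries, 3711, 3365 and 2836 at day 2, 2826, 2895 and 2927 at day 7, and 2723, 2709 and 3308 at day 14. In unbound libraries this mean was 2646 to 2924 bases. The part of this library-wide difference in the gene results was not tested. A fit made after the data were seen, with the trend of log2 RPKM on coding length removed from each library, called 17 of the 73 genes at day 7, 10 higher and 7 lower, against 22.6% of all genes in that fit, and the median log2 fold of the members was 0.19. The 10 higher were Mrps24 (1.09), Mrpl14 (0.82), Mrpl36 (0.81), Mrpl34 (0.72), Mrps28 (0.71), Mrpl52 (0.65), Mrpl11 (0.61), Mrps18c (0.61), Mrpl2 (0.59) and Mrpl13 (0.47). The 7 lower were Mrpl1 (-1.14), Mrps31 (-0.93), Mrps27 (-0.93), Mrpl48 (-0.93), Mrpl46 (-0.80), Mrps5 (-0.75) and Mrps6 (-0.62). Counts with other scalings of the libraries were 28 (23 higher and 5 lower) with median-ratio size factors (24.4% of all tested genes) and 33 (24 higher and 9 lower) with RPKM rescaled to the same total (22.6%). With the trend on exon length removed 19 were higher and 7 lower, with no share of all tested genes given for that fit. Rescaling to the same total set the median of all tested genes to -0.19.

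**Figure D4:**
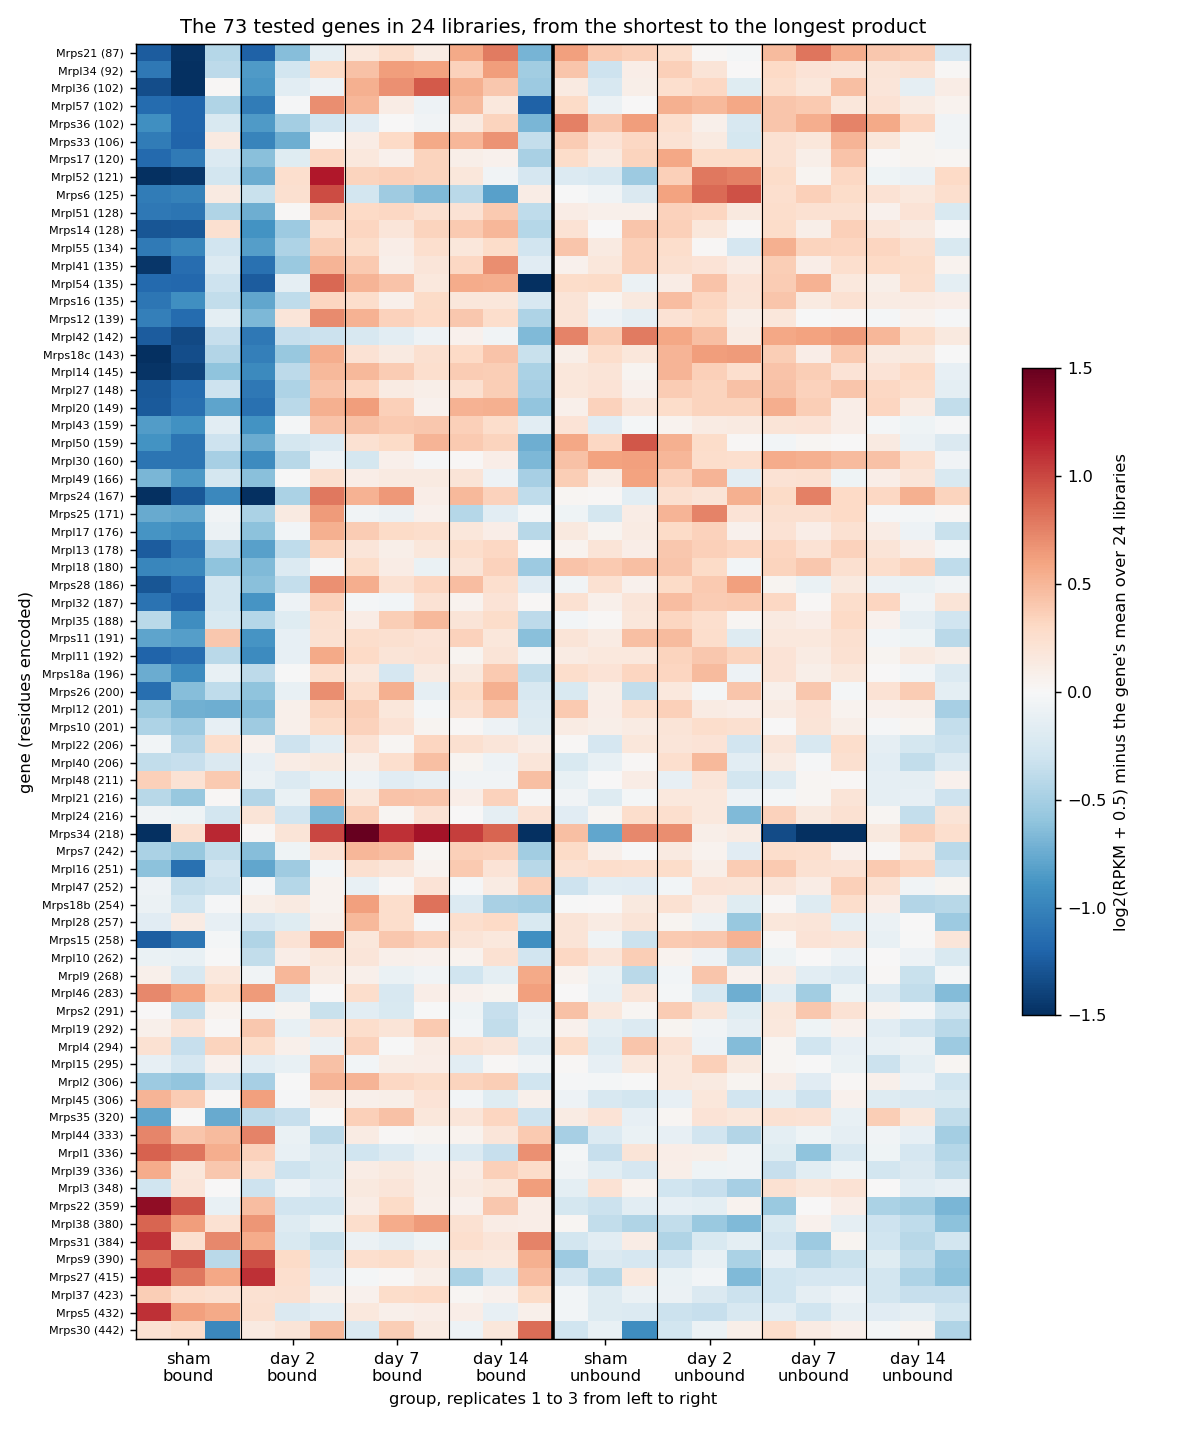
Log2 RPKM + 0.5 of the 73 tested genes relative to each gene's mean over 24 libraries, with genes from the shortest product (87 residues, top) to the longest (442 residues, bottom) and the replicates of each group side by side. Sham bound libraries are blue at the top and red at the bottom; D2 IRI bound replicate 1 and D14 IRI bound replicate 3 look like them, and unbound libraries show no such gradient.

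In unbound RNA no member was called against sham at any of the 3 times. In limma 0 of 73 were called at day 2, day 7 and day 14, against 14.8%, 1.09% and 1.23% of all tested genes. At an unadjusted p under 0.05 there were 6, 3 and 2, against 4137, 2097 and 2820 of all 13721 tested genes. Median log2 folds were 0.10, 0.06 and -0.13 over the 73 genes and 0.20, 0.18 and 0.22 over all tested genes. Between D14 IRI and D2 IRI unbound RNA 0 of 73 were called, against 4.95%. There 3 had an unadjusted p under 0.05, against 2439 of all 13721 tested genes. A limma F-test over the 4 times called 0 of 73, against 9.82% of all tested genes. In that test 1 member had an unadjusted p under 0.05, against 3556 of all 13721 tested genes. Mrps6 came nearest to a call. It had 173, 206 and 221 RPKM in D2 IRI unbound libraries, against 114, 110 and 98.1 RPKM in sham unbound libraries, and the groups did not overlap (log2 fold 0.89, SE 0.30, limma adjusted p = 0.052). Its later levels were 140 ± 5.54 RPKM at day 7 and 132 ± 4.40 RPKM at day 14 (SD, n = 3 each). Mrpl52 had 328, 443 and 432 RPKM in D2 IRI unbound libraries, against 222, 217 and 175 RPKM in sham unbound libraries (log2 fold 0.96, SE 0.35, limma adjusted p = 0.068), and here too all D2 IRI values were above all sham values.

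Between the fractions of sham kidneys, 41 of the 73 genes differed, 11 higher and 30 lower in bound RNA, against 27.6% of all tested genes (14.6% higher and 12.9% lower). The median log2 fold of bound over unbound was -0.60 for the 73 genes and 0.01 for all tested genes. The 30 lower genes had products of 87 to 251 residues and the 11 higher ones products of 306 to 432 residues. Mrpl42 had 166, 155 and 311 RPKM in sham bound libraries, against 665, 516 and 683 RPKM in sham unbound libraries (log2 fold -1.62, SE 0.27, limma adjusted p = 0.00024). All bound values lay below all unbound values. Mrps21 (-1.51), Mrpl30 (-1.45), Mrpl50 (-1.37), Mrps36 (-1.37), Mrps18c (-1.30), Mrpl14 (-1.29) and Mrpl18 (-1.28) were the next lowest. Mrps27 had 62.2, 48.6 and 41.9 RPKM in sham bound libraries, against 23.3, 20.6 and 31.2 RPKM in sham unbound libraries (log2 fold 1.01, SE 0.28, limma adjusted p = 0.010), with all bound values above all unbound values. Mrps22 (0.97), Mrps5 (0.91), Mrpl38 (0.84), Mrpl44 (0.81), Mrpl1 (0.80), Mrps31 (0.79) and Mrps9 (0.79) were also higher. Spearman's rho of log2 fold with residues was 0.84 over the 73 genes and 0.47 over 12326 genes. Without sham bound replicate 1, 2 and 3 the count was 24, 27 and 51, against 20.8%, 19.7% and 30.2% of all tested genes. With the coding-length trend removed 23 of the 73 were called, 10 higher and 13 lower, against 24.8% of all genes in that fit. With RPKM rescaled to the same total 14 were higher and 22 lower, with a median of 0.40 over all tested genes and -0.16 over the members.

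**Figure D5:**
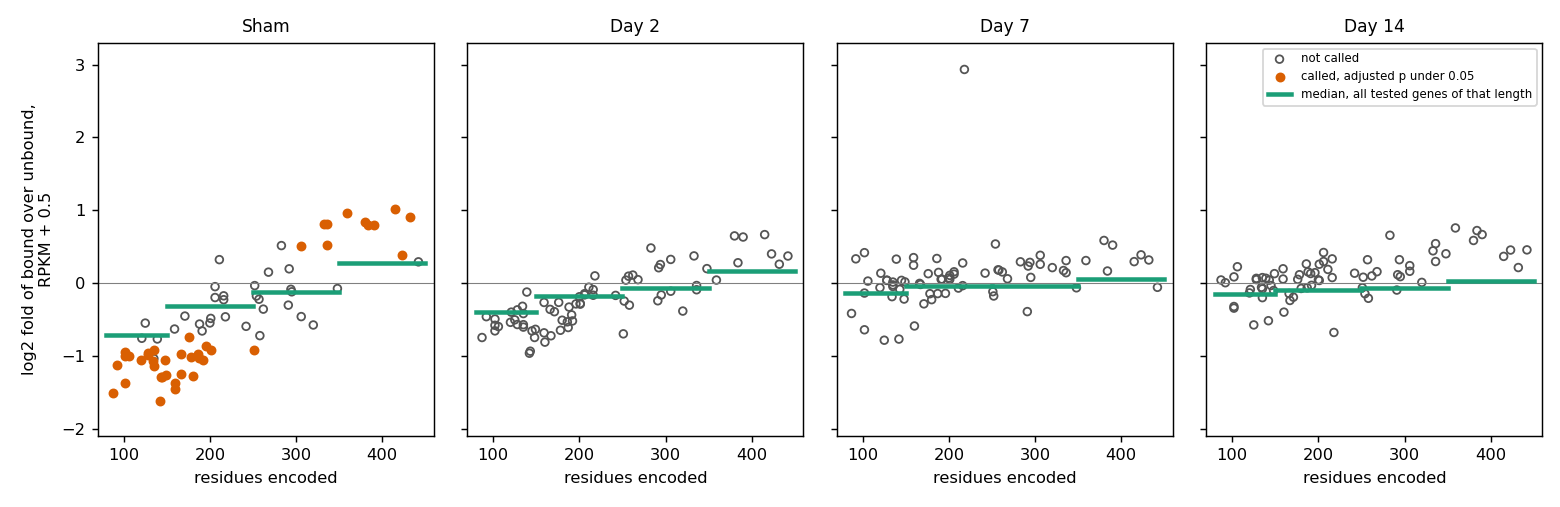
Log2 fold of bound over unbound RNA (vertical) against residues (horizontal) for the 73 tested genes at each time, with called genes filled and medians of all tested genes of the same length class in green. The slope is steep in sham and at day 2 and shallow at day 7. Mrps34 stands farthest from 0 there, at a log2 fold of 2.93, followed by Mrps6 at -0.79 and Mrpl42 at -0.77.

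After injury no member was called between the fractions without pairing. In limma 0 of 73 genes passed between bound and unbound RNA at day 2, day 7 and day 14, against 1.68%, 2.35% and 0.816% of all tested genes. At an unadjusted p under 0.05 there were 18, 9 and 9, against 2423, 2252 and 1439 of all 13721 tested genes. The labels do not say that equal replicate numbers are the same mouse, but libraries of the same number deviated together. Paired by mouse on that inference, the counts were 5, 4 and 0, against 9.5%, 11.4% and 2.62% of all tested genes. At day 2 Mrpl42 (-0.97, paired limma adjusted p = 0.024), Mrps18c (-0.94), Mrpl30 (-0.81) and Mrpl16 (-0.70) were lower and Mrpl38 (0.65) higher in bound RNA. At day 7 Mrpl42 (-0.77) was lower, and Mrpl38 (0.58), Mrps18b (0.53) and Mrps34 (2.93) were higher. The sham comparison paired in this way called 49 of 73, against 39.3% of all tested genes.

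Whether the change from sham differed between the fractions was tested as an interaction. None of the 73 genes was called at day 2, day 7 or day 14 in limma, against 0%, 0.146% and 0.197% of all tested genes. At an unadjusted p under 0.05 there were 6, 37 and 33 members, against 758, 2320 and 2267 of all 13721 tested genes. Paired by mouse, 0 were called at day 2, 5 at day 7 and 9 at day 14, all with a more positive change in bound RNA, against 0%, 5.26% and 6.28% of all tested genes. Mrpl50 had the smallest p at both times. It had 62.3, 65.1 and 76.0 RPKM in D7 IRI bound libraries, against 28.3, 24.6 and 42.7 RPKM in sham bound libraries. In unbound RNA it had 51.5, 54.2 and 53.3 RPKM in D7 IRI libraries, against 79.3, 66.0 and 102 RPKM in sham libraries. Thus its D7 IRI values were all above sham in bound RNA, where it was called (limma adjusted p = 0.0057). In unbound RNA they were all below sham, but it was not called there (log2 fold -0.61, limma adjusted p = 0.28). The difference of the log2 folds was 1.72 (paired limma adjusted p = 0.020, and 0.073 unpaired).

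Other genes of mitochondrial translation were followed in bound RNA at day 7, from lists written from general knowledge. Of all tested genes 15.2% rose and 7.55% fell in that comparison, and several of the counts below are near those shares. Of 7 further ribosome-associated proteins 3 rose (Chchd1, Ict1 and Aurkaip1, with products of 118 to 206 residues) and 1 fell, Ptcd3 with 685 residues. Chchd1 averaged 202 ± 12.3 RPKM in D7 IRI bound libraries and 80.3 ± 28.2 RPKM in sham bound libraries (SD, n = 3 each; log2 fold 1.38, limma adjusted p = 0.012). Of 14 translation factors and partners 2 rose, Slirp (1.55) and Mrrf (0.62), and 6 fell. Among these 6 were Gfm2 (-1.14) and the elongation factors Gfm1 (-1.73, limma adjusted p = 0.00012) and Tufm (-1.10). Gfm1 averaged 19.0 ± 1.11 RPKM in D7 IRI bound libraries and 65.1 ± 14.9 RPKM in sham bound libraries. Of 25 assembly factors 3 rose, including Malsu1 (0.96), whose protein binds Mrpl14, and 5 fell, including Dhx30 (-1.16). Of 17 mitochondrial aminoacyl-tRNA synthetases 1 rose, Lars2 (1.2), and 4 fell, including Fars2 (-1.19). Of 10 regulators of mitochondrial biogenesis 1 rose, Yy1 (0.59), and 2 fell, the coactivators Ppargc1a (-1.51, limma adjusted p = 0.00085) and Ppargc1b (-1.16). Product lengths are not given here for the translation factors, assembly factors, synthetases and regulators. The part of length in the counts of all these lists was not tested.

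The same split by length was seen in the nuclear-encoded respiratory chain. Of 30 tested genes 10 rose at day 7 in bound RNA, with products of 63 to 213 residues, and 7 fell, with products of 377 to 727 residues. The shares over all tested genes were 15.2% and 7.55%. Ndufa4 (1.77), Uqcrq (1.70) and Cox5b (1.59) rose, while Sdha (-2.22), Ndufs1 (-1.77) and Uqcrc2 (-1.47) fell. Subunits of 1 complex, such as Uqcrq and Uqcrc2, stood on both sides. Cytosolic ribosomal protein genes summed to 10097 to 11655 RPKM in D7 IRI bound libraries, against 3327 to 4969 RPKM in sham bound libraries. Their longest class, only 3 genes of more than 350 residues, had a median log2 fold of 1.10 at day 7. The 8 longest mitochondrial ribosomal protein genes had one of -0.39. The part of length in either value was not tested. The 7 tested protein genes of mitochondrial DNA had a median log2 fold of -0.45 at day 7 in bound RNA, and all 7 were lower in bound than in unbound RNA of sham kidneys (log2 folds of -2.71 to -1.70). The 2 mitochondrial ribosomal RNAs, mt-Rnr1 and mt-Rnr2, had log2 folds of -0.07 and 0.01 at day 7 in bound RNA and were not called.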

How the data were processed

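RNA of 24 libraries from 12 mice was sequenced (bound and unbound fractions, 8 groups of 3). The authors deposited 1 table of RPKM values, made per the submitters' processing notes with STAR 2.0.4b, Subread, featureCounts 1.4.5 and edgeR; neither the genome build nor the use of strand is given in the sources used here. This table had 41831 lines, of which 1081 were identical repeats and were dropped. RPKM are not counts, so the test was limma 3.58.1 (R 4.3.3, trended variance) on log2(RPKM + 0.5) over genes of at least 1 RPKM in at least 3 libraries, with 8 group means in 1 fit and Benjamini-Hochberg adjustment; such folds understate the change of low genes. Low values lay on steps of 1 read: 64.3% to 66.1% were whole multiples within 0.02, where 4% would be by chance, too few to recover counts, so depth is an estimate. The fit was tested on simulated data with independent libraries and 1 spread per gene in all groups. That setting cannot show how the fit behaves with bound groups of unequal spread or with libraries that deviate together. Bound and unbound libraries of the same number deviated together in 12 of 12 pairs (r = 0.27 to 0.67, each best with its own number). Those comparisons were also fitted with the mouse as a block. That equal numbers are the same mouse was inferred from these correlations and is not in the labels. P-values of the main fit rest on 1 spread per gene, shared by all 8 groups, and treat the 24 libraries as independent. Groups that vary more than others are therefore not given their own spread. P-values of the fit with the mouse as a block rest on how the difference between fractions varies between mice.

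Symbols came from the table, coding lengths from GENCODE M21 and promoters from RefSeq (GRCm38.p6). Text names the members with the largest calls, up to 8 higher and 8 lower per comparison, and members chosen for their role. The members, gene lists, marker lists, motifs and length classes were chosen with earlier results of these data known. The alternatives were other pseudocounts, no filter, other scalings, the groups compared alone, a replicate block, each library left out, and removal of a length trend.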

Additional observations from a re-analysis of the deposited data

Results flagged for a closer look

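Paired by mouse, the change from sham differed between bound and unbound RNA for 5 genes at day 7 and 9 genes at day 14. In each the change was more positive in bound RNA. Which libraries share a mouse was inferred from equal replicate numbers. In the same fit 5.26% and 6.28% of all tested genes were called, so that the day 7 count is near the share over all genes. The difference of log2 folds at day 7 was 1.72 for Mrpl50, 1.46 for Mrpl34, 1.32 for Mrps28, 1.27 for Mrpl20 and 1.05 for Mrpl18. At day 14 it was 1.55 for Mrps21, 1.43 for Mrpl50, 1.39 for Mrpl20, 1.34 for Mrps18c, 1.24 for Mrps28, 1.2 for Mrpl18, 1.18 for Mrpl12, 1.13 for Mrpl13 and 1.05 for Mrpl30. Without the pairing none of the 73 genes was called at either time in limma. There 37 and 33 had an unadjusted p under 0.05, against 2320 and 2267 of all 13721 tested genes. The products of these genes are short, from 87 to 201 residues, and the sham libraries are shared by both times.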

How the results depend on the processing

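None of 63 named calls changed direction, and 21 held under every alternative tried. Mrps6 at day 7 in bound RNA, with a log2 fold of 0.15 and not called, was called lower, at -0.62, with the coding-length trend removed. That removal also took the members' median at day 2 in bound RNA to -0.03, against 0.39, and medians in unbound RNA at days 2 and 7 changed sign under some scalings. Counts below are of the 73 tested genes, and the length trends and the rescaling to an equal total were chosen after seeing the data. Causes were not tested. Where no share of all tested genes was given above for a setting, its count is not a result about the members. For bound RNA against sham at day 2 the count of 12 became 6 with no filter, 7 with median-ratio factors or either length trend removed, and 0 with only the groups compared. At day 7 the count of 45 became 28 with median-ratio factors, 27 with only the groups compared, 26 with the exon-length and 17 with the coding-length trend removed. At day 14 the count of 25 became 16 with no filter, 11 with median-ratio factors or the exon-length trend removed, 12 with the coding-length trend removed and 0 with only the groups compared. For D14 IRI against D2 IRI in bound RNA 0 became 1 with median-ratio factors or quantile normalization, 2 and 3 with the exon- and coding-length trends removed, and 5 without the third D14 IRI replicate in both fractions. That omission also gave 42 for day 14 against sham and 6 for the day 14 interaction. In unbound RNA at day 2, 0 became 2 with median-ratio factors, rescaling or only the groups compared, 3 with quantile normalization, 1 with the replicate block and 5 with either length trend removed; at day 7 it became 4 with only the groups compared. For sham bound against unbound RNA 41 became 23 with the coding-length trend removed. Between fractions at day 2, 0 became 5 with the replicate block and 1 with the exon-length trend removed. At day 7, 0 became 4 with the block, 7 with only the groups compared, 1 with a pseudocount of 1 or the exon-length trend removed, and 2 with the coding-length trend removed. The day 7 interaction gave 12 with only the groups compared and 5 with the block, and the day 14 interaction 9 with the block. The block with the replicate number changed no other count by over 1.5 times. Libraries of equal number did not go together over all pairs of times (r = -0.37 to 0.37). Between day 7 and day 14 r was positive throughout, at 0.13 to 0.17 in bound and 0.086 to 0.37 in unbound RNA. The F-test in bound RNA gave 22 with median-ratio factors or rescaling, 19 and 16 with the exon- and coding-length trends removed and 0 with only that fraction, against 37. In unbound RNA it gave 1 with median-ratio factors, quantile normalization or the exon-length trend removed, 3 with the coding-length trend removed and 7 with only that fraction, against 0. Leaving out 1 library gave 1 to 40 calls at day 2, 23 to 52 at day 7 and 1 to 42 at day 14 in bound RNA, 0 to 5 for D14 IRI against D2 IRI bound, and 24 to 51 between sham fractions. It gave 0 to 15 between fractions at day 2, 0 to 6 and 0 to 24 for the interactions at days 7 and 14, and 9 to 50 for the F-test in bound RNA. With 3 libraries a group and bound libraries that differ among themselves, small changes were not detectable.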

Other observations

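Mrps34, a small-subunit protein, varied widely between libraries and was chosen after its values were seen. It had 7.82, 8.92 and 16 RPKM in D2 IRI bound libraries, 24.1, 17.1 and 19.1 RPKM at day 7 and 16.5, 14.6 and 0.393 RPKM at day 14, against 1.08, 9.2 and 17.6 RPKM in sham bound libraries. In unbound RNA it had 12.9, 8.26 and 8.49 RPKM at day 2, 2.75, 2.21 and 1.66 RPKM at day 7 and 8.59, 10.1 and 9.31 RPKM at day 14, against 10.7, 4.28 and 13.1 RPKM in sham libraries. Thus unbound levels were lowest at day 7, when bound levels were highest, and the groups did not overlap there. About 77.8% of its exon bases are shared with other genes. How reads in these shared bases were assigned was not examined, and whether they played a part in the values of Mrps34 was not tested.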
